A study of Mus musculus with 4 samples.

Results

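Regions of open chromatin on mouse chromosomes 1 and 18 were followed by genotype in 10T1/2 cells. Peaks of all 4 libraries that shared 1 bp or more were merged, and the regions described here are the merged regions of these chromosomes with a peak in at least 2 of the 4 lists. There were 2157 such regions, 1449 on chromosome 1 and 708 on chromosome 18, of 23116 merged regions with a peak in at least 2 lists and 39137 merged regions in all. The 2 chromosomes were picked because earlier results of the same libraries had them higher in knockout cells, so every genotype difference of whole chromosomes below is a description and carries no test. The knockout group (KO) had 2 libraries from 10T1/2 cells made Ranbp2-deficient by CRISPR-Cas9, all from 1 clone expanded from a single sorted cell. The wild-type group (WT) had 2 libraries of 10T1/2 cells with intact Ranbp2. The line is a mouse embryonic fibroblast line, both groups share its background and culture, and the labels give no further allele or treatment. Nothing in the labels says that replicates were separate cultures, so any p-value measures only the spread between these libraries, which may be technical.

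RANBP2 is a large nucleoporin of the cytoplasmic filaments of the nuclear pore that binds the GTPase Ran. ATAC-seq reads open chromatin, because a transposase inserts adapters where DNA is not wrapped in nucleosomes. Peaks at gene starts mark promoters that are open in many cell types, while peaks inside and between genes more often mark enhancers, which differ between cell states. Pore proteins and the lamina are both known to contact chromatin at the nuclear edge.

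The promoters shown here are those on chromosome 1 that the results return to. Epha4, an ephrin receptor tyrosine kinase, had the widest gap between genotypes among the listed genes with an open start. Gigyf2, a translational repressor, had the start-site region ranked highest in KO cells among those in the authors' KO-enriched list. Lbr, the lamin B receptor that ties chromatin to the inner nuclear membrane, had the largest difference among the nuclear pore and lamina genes. Each sequence is 300 bases of the RefSeq table for GRCm38.p6, from 250 bases before the start to 50 after it, 5′ to 3′ on the gene's strand. Epha4 lies at chr1:77515039-77515338 on the minus strand, Gigyf2 at chr1:87326748-87327047 on the plus strand and Lbr at chr1:181842352-181842651 on the minus strand. Capitals mark matches on either strand to the letters GGGCGGG (SP and KLF), CCAAT (NF-Y), CACGTG (E-box), TGANTCA (AP-1), CCGGAAG (ETS), CATTCC (TEAD) and GCGCATG (NRF1 core), and no match overlaps another in these promoters.
Epha4: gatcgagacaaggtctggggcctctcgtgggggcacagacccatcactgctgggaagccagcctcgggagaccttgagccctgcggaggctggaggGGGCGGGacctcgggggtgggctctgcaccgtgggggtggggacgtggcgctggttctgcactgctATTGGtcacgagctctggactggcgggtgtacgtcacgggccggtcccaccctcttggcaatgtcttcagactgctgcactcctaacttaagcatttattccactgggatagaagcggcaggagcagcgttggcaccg
Gigyf2: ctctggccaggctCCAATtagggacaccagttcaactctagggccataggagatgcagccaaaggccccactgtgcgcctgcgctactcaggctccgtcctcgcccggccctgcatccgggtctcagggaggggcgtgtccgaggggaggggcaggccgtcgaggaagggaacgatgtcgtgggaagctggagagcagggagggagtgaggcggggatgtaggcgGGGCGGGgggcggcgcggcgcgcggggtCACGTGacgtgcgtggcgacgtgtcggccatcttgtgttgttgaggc
Lbr: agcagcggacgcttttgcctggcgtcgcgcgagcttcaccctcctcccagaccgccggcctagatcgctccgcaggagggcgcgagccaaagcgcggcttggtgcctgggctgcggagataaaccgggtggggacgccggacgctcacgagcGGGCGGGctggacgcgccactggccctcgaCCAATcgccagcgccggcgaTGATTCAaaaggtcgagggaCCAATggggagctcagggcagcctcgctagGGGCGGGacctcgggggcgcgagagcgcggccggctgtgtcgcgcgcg
The Epha4 promoter held 1 GGGCGGG and 1 CCAAT, the Gigyf2 promoter 1 of each and 1 CACGTG, and the Lbr promoter 2 GGGCGGG, 2 CCAAT and 1 TGANTCA. Of all 21263 protein-coding promoters of the table, 33.9% held GGGCGGG, 38.2% CCAAT, 7.84% CACGTG, 6.99% TGANTCA, 11.6% CCGGAAG, 13.6% CATTCC and 4.80% GCGCATG. Of 401 chromosome 1 promoters with one of the regions within 1 kb, 54.6% held GGGCGGG and 44.4% CCAAT, against 52.0% and 43.5% of 6087 such promoters on the other autosomes. CCGGAAG was in 17.0% of them, against 22.1% on the other autosomes, and GCGCATG in 6.98%, against 8.67%. The other 3 motifs differed by less than 1 percentage point. A match is a description of the letters and not evidence of binding.

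The deposited lists held 13877 and 24292 peaks in KO replicates 1 and 2, against 33721 and 18511 peaks in WT replicates 1 and 2. They give no read counts, so the sequencing depth is unknown. Because the lists differ in length, each library was compared with itself: its value on chromosome 1 or 18 was set against its value on the 17 other autosomes. Gene ends of 8 fibroblast markers carried a peak for 2 and 3 markers in the KO libraries, against 7 and 5 in the WT libraries, with Fn1 and Col1a2 present in all 4 and Prrx1 in none. None of 8 epithelial, endothelial and pluripotency markers had one, while Cd68 had one in KO replicate 2 and Tubb3 one in WT replicate 1. The fibroblast marker counts move with genotype and with list length, and their part in the results below was not tested.

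Of the chromosome 1 regions, 415 had a peak in 2 lists, 332 in 3 lists and 702 in all 4, and on chromosome 18 the counts were 203, 178 and 327. At the edge of the selection, chromosome 1 regions in 2 lists had a median best percentile of 43.6 and a median width of 179 bp, while the 1111 regions with a peak in a single list, which were left out, had 17.9 and 122 bp. On chromosome 18 the regions in 2 lists had a median best percentile of 42.8, and the 533 left out had 16.2. Of the members, 317 were shared by KO replicate 2 and WT replicate 1 alone, the libraries with the longest lists. Gene ends, meaning positions no more than 1 kb from the start or the far end of a gene that codes for protein, held 473 of the chromosome 1 regions (32.6%, Wilson 95% interval 30.3 to 35.1) and 203 of the chromosome 18 regions (28.7%, 25.5 to 32.1), against 36.3% (35.6 to 37.0) on the other autosomes. The intervals cover counting error only. Both chromosomes thus had a lower share of regions at gene ends than the other autosomes, and the genotype values below are also given by position.

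On chromosome 1, 59.4% and 88.7% of the regions had a peak in the KO libraries, against 97.2% and 74.5% in the WT libraries. The raw shares follow the lengths of the lists. Set against the other autosomes, presence was 2.55 and 2.07 percentage points in the KO libraries, against −0.745 and −3.48 points in the WT libraries. The KO mean was 2.31 ± 0.344 and the WT mean −2.11 ± 1.94 points (SD, n = 2 each), a KO minus WT difference of 4.42 points, with both KO libraries above both WT libraries. On chromosome 18, 60.6% and 85.9% of the regions were present in the KO libraries, against 97.3% and 73.7% in the WT libraries. Relative to the other autosomes this was 3.73 and −0.740 points in the KO libraries, against −0.599 and −4.29 points in the WT libraries. The difference was 3.94 points, but KO replicate 2 lay below WT replicate 1, so the genotypes overlapped. Leaving out WT replicate 2 brought the difference to 1.62 points on chromosome 1 and 1.19 points on chromosome 18. Without KO replicate 1 the chromosome 18 difference was 2.24 points, and without KO replicate 2 it was 6.55 points. With every list cut to the 13877 peaks of the shortest, the chromosome 1 difference was 6.83 points, and set against the 11 autosomes with no excess of authors' differential regions it was 2.82 points.

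Rank was measured in the 702 chromosome 1 and 327 chromosome 18 regions with a peak in all 4 lists, since a region absent from a list has no rank there. The percentile of a region is the share of the peaks in that library's list with a −log10 q no higher than its own, so 100 is the strongest peak. Chromosome 1 regions averaged percentile 56.8 and 72.6 in the KO libraries, against 77.4 and 60.5 in the WT libraries. The other autosomes averaged 56.5 and 73.1 in the KO libraries, against 79.8 and 64.6 in the WT libraries. Relative to the other autosomes, chromosome 1 was at 0.295 and −0.472 points in the KO libraries, against −2.39 and −4.05 points in the WT libraries. The KO mean of −0.0886 ± 0.543 and the WT mean of −3.22 ± 1.17 points (SD, n = 2 each) differed by 3.13 points. The chromosome 1 regions were thus near the level of the other autosomes in KO cells and below it in WT cells.

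Chromosome 18 regions averaged percentile 57.3 and 74.6 in the KO libraries, against 78.7 and 62.5 in the WT libraries. Relative to the other autosomes these were 0.804 and 1.48 points in the KO libraries, against −1.11 and −2.05 points in the WT libraries. The KO mean of 1.14 ± 0.476 and the WT mean of −1.58 ± 0.668 points (SD, n = 2 each) differed by 2.72 points. Here the KO libraries were above and the WT libraries below the other autosomes, and no KO library overlapped a WT library. The size depends on the measure of strength: ranked by the authors' fold enrichment in place of −log10 q, the difference was 1.40 points on chromosome 1 and 0.975 points on chromosome 18. Without WT replicate 2 the chromosome 1 difference by −log10 q was 1.92 points.

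**Figure D1:**
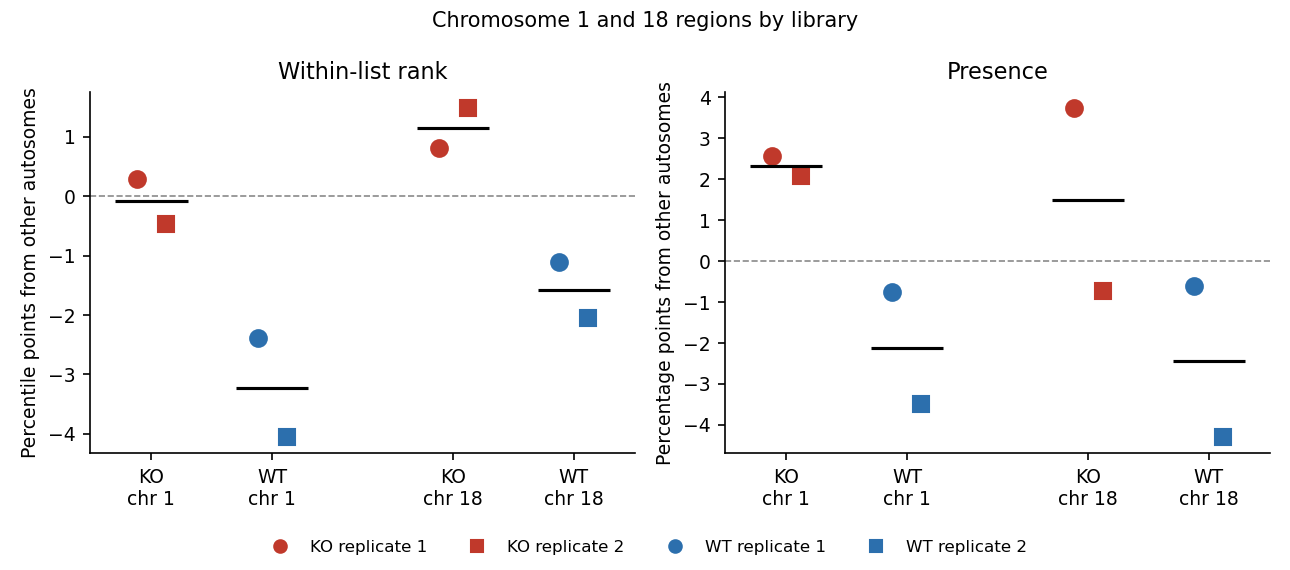
Mean within-list percentile (left, in percentile points) and share of regions with a peak (right, in percentage points) of chromosome 1 and 18 regions, each minus the same library's value on the 17 other autosomes. Each point is a library and each bar the mean of 2. By rank the KO libraries lie above the WT libraries on both chromosomes, and by presence KO replicate 2 and WT replicate 1 overlap on chromosome 18.

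The 19 autosomes differed widely among themselves. By rank, KO and WT libraries did not overlap on 12 of 19 autosomes in one direction or the other (63.2%), and by presence on 13 of 19 (68.4%). By KO minus WT difference in rank, chromosome 1 stood at place 3 of the 19 and chromosome 18 at place 5. Chromosomes 17 and 8 stood above chromosome 1, with 4.63 and 3.60 points, and chromosome 6 stood between chromosomes 1 and 18, with 2.87 points. By presence chromosome 1 came at place 4 and chromosome 18 at place 5. A KO difference of this size was therefore shared with other chromosomes and no value here sets chromosomes 1 and 18 apart from them.

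**Figure D2:**
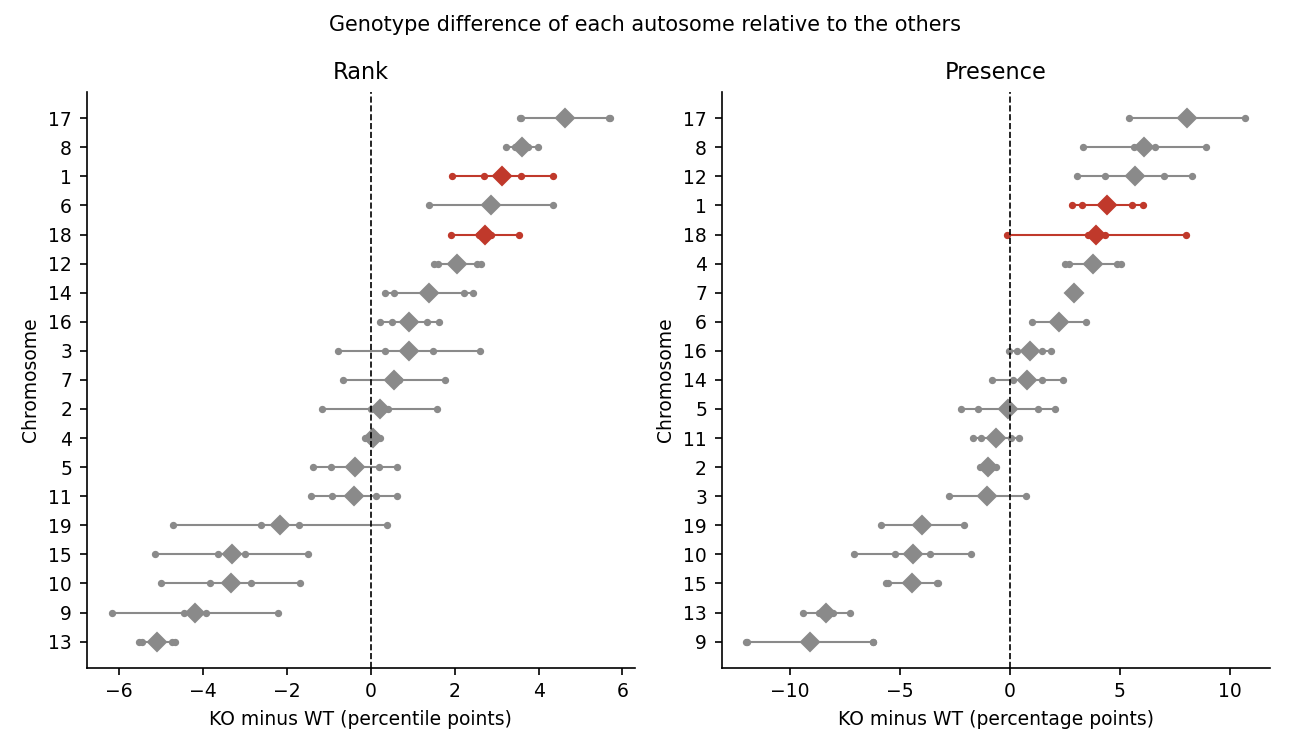
KO minus WT difference of each autosome against the others, by rank (left, percentile points) and by presence (right, percentage points). Diamonds are the difference of the means, small points the 4 differences between single KO and WT libraries, and chromosomes 1 and 18 are in red. Both sit in the upper part of each panel, below chromosome 17, and chromosome 18 crosses 0 by presence.

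Position relative to genes was not used to pick the chromosomes. At the 313 gene-end regions of chromosome 1, rank was 2.75 and 2.02 points above gene ends of other autosomes in the KO libraries, against −0.0822 and −1.69 points in the WT libraries, a difference of 3.27 points. At its 218 regions inside genes away from their ends it was 0.498 and −1.43 points in the KO libraries, against −3.77 and −5.14 points in the WT libraries, a difference of 3.99 points. At its 171 regions between genes the difference was 1.60 points, and it turned to −0.359 without WT replicate 2. Set as one value, the regions away from gene ends had a KO minus WT difference that stood at −0.392 points relative to the one at gene ends on chromosome 1 (KO mean −3.79, WT mean −3.40, exact two-sided permutation p = 0.333, the smallest that 2 libraries against 2 can give). Without KO replicate 1 this turned to 0.379.

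The 140 gene-end regions of chromosome 18 had the widest difference of its 3 classes. Relative to gene ends of other autosomes they ranked at 2.10 and 1.97 points in the KO libraries, against −1.57 and −2.77 points in the WT libraries, a difference of 4.20 points. The 97 regions inside genes differed by 1.31 points between genotypes, and the 90 regions between genes by 1.49 points with the libraries overlapping. Inside genes the difference was 0.0139 once regions of the authors' differential lists were left out, and −0.209 by fold enrichment. Regions away from gene ends stood at −2.81 points relative to those at gene ends (KO mean −0.622, WT mean 2.18, exact two-sided permutation p = 0.333, again the smallest possible).

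Presence split the classes of position in another way. On chromosome 1 the 493 regions inside genes were present more often than such regions elsewhere by 6.34 and 5.75 percentage points in the KO libraries, and less often by 0.547 and 5.85 points in the WT libraries. Their difference of 9.25 points was the widest of the 3 classes, although it was 3.39 points without WT replicate 2. The 473 gene-end regions differed by 4.41 points, or 1.60 points without WT replicate 2. The 483 regions between genes differed by −0.149 points, with overlapping libraries and a sign that turned under several settings. The chromosome 18 differences were 6.29 points at gene ends, where the genotypes overlapped, 3.54 points inside genes and 3.24 points between genes. Without KO replicate 2 the gene-end value was 12.8 points, and without KO replicate 1 it was 2.52 points. Without WT replicate 2 the 3 values were 2.81, 1.00 and 0.930 points, in the same order.

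**Figure D3:**
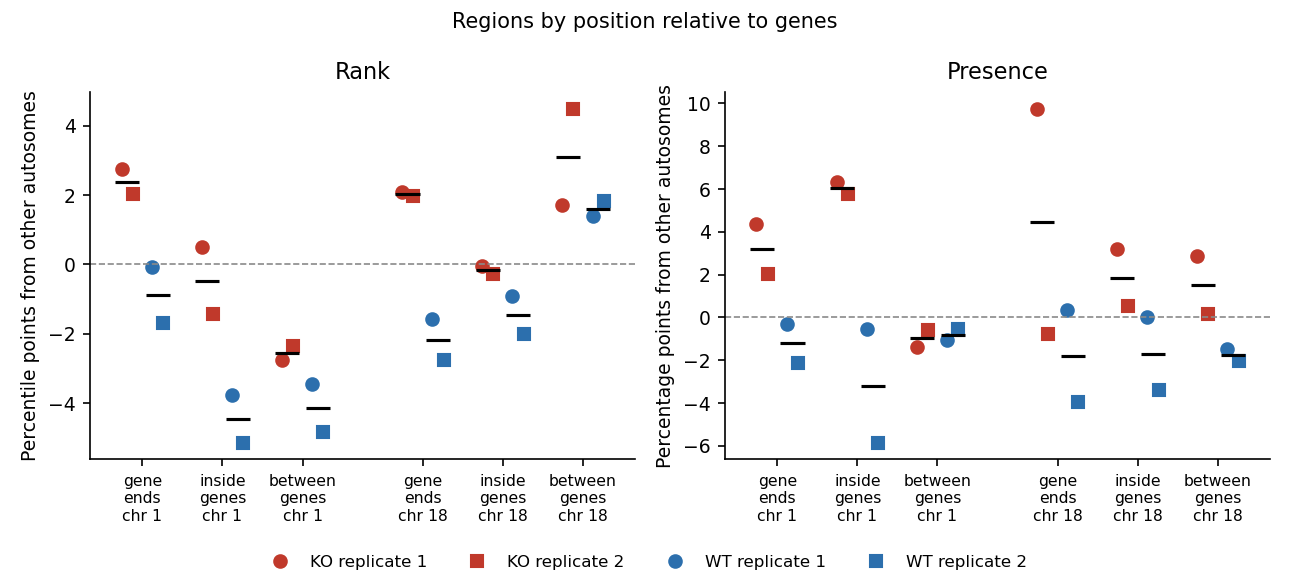
Rank (left, percentile points) and presence (right, percentage points) of chromosome 1 and 18 regions at gene ends, inside genes and between genes, each minus the same class on the 17 other autosomes. Points are libraries and bars the means of 2. KO libraries lie above WT libraries by rank in all classes but the chromosome 18 regions between genes, and by presence the chromosome 1 regions between genes show no separation.

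The difference was seen at weak and strong regions alike. Regions in all 4 lists were sorted by their mean percentile into 3 classes with cut points set over all autosomes, and each class was compared with the same class elsewhere. On chromosome 1 the KO minus WT difference was 4.18 points in the 259 weakest, 3.34 points in the 226 middle and 2.23 points in the 217 strongest regions. On chromosome 18 it was 4.42, 2.64 and 1.68 points in 111, 119 and 97 regions. Percentiles have a ceiling, so strong regions have less room to differ.

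Fixed windows of 5 Mb showed where along the chromosomes the difference lay. A window was scored by rank where it held at least 5 regions in all 4 lists, and counted as higher where both KO libraries exceeded both WT libraries after each library's mean over the other autosomes was subtracted. On chromosome 1, 16 of 33 windows were higher and 3 lower, and on chromosome 18, 6 of 16 were higher and 1 lower. Over all autosomes 28.6% of windows were higher and 24.8% lower. The median window difference was 1.96 points on chromosome 1 and 1.68 points on chromosome 18, with 26 of 33 and 12 of 16 windows above 0, against a median of −0.224 points and 191 of 398 windows on the other autosomes. By presence, with at least 10 regions per window, 14 of 33 chromosome 1 windows were higher and 2 lower, and 6 of 15 chromosome 18 windows were higher and 2 lower, beside 24.7% higher and 26.4% lower over all autosomes. Of the windows scored by both measures, 8 of 33 on chromosome 1 and 3 of 15 on chromosome 18 were higher by both. Over all autosomes 47 of 444 were.

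**Figure D4:**
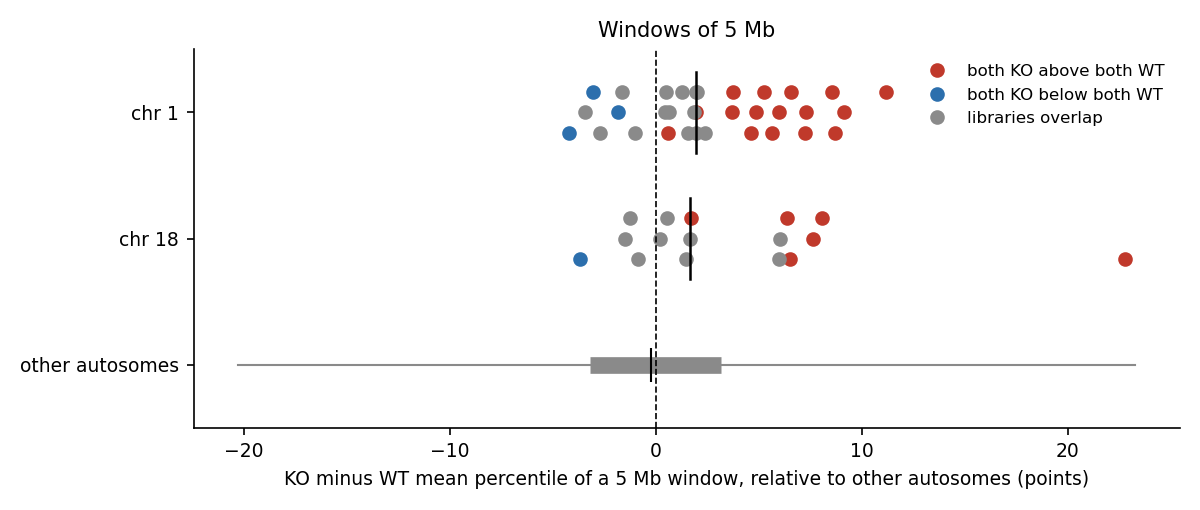
KO minus WT difference of each 5 Mb window in mean percentile (points), for 33 windows of chromosome 1 and 16 of chromosome 18, with the median of each as a black line. The bottom row gives the range (line), the middle 50% (bar) and the median of 398 windows of the other autosomes. Most windows of both chromosomes lie right of 0, and the range of the other autosomes spans all of them.

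The higher windows of chromosome 1 were scattered over its length. The longest unbroken run was 4 windows from 170 to 190 Mb, with differences of 1.96 to 7.22 points, and strongest gene-end regions at Tomm40l, Desi2, Sde2 and Cenpf. The window from 15 to 20 Mb, around Terf1 of the telomere-capping complex, had the largest value, 11.2 points over 6 regions, of which 5 were positive. It was −3.60 and −9.29 points in the KO libraries, against −15.3 and −20.0 points in the WT libraries, so this stretch ranked below the other autosomes in all 4 libraries and further below in WT. Next came the windows from 115 to 120 Mb with 9.13 points over 5 regions, from 50 to 55 Mb with 8.72 points over 13 and from 45 to 50 Mb with 8.57 points over 8. The window from 75 to 80 Mb, whose value was 7.27 points over 21 regions, is the one that holds Epha4. Of the 21 regions 12 were positive, with a median of 3.41 points. The window stood at 5.00 points without the region of largest difference. Its regions near Acsl3, at Epha4 and inside Wdfy1 differed by 52.7, 48.2 and 46.3 points, so few regions carried much of the value. There all 36 regions had a peak in KO replicate 2 and 69.4% in KO replicate 1, against 91.7% and 72.2% in the WT libraries, and 3 regions were in the authors' KO-enriched list. The lowest windows were at 80 to 85 Mb with −4.21 points, directly beside it, at 120 to 125 Mb with −3.41 points and at 55 to 60 Mb with −3.05 points.

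On chromosome 18 the first window, from 0 to 5 Mb, stood far from the rest with 22.8 points over 7 regions, or 17.6 points without the region of largest difference. It was 24.7 and 15.8 points above the other autosomes in the KO libraries, and 3.16 and 1.89 points below them in the WT libraries. That value came from 3 regions between genes. One near Lyzl1, chr18:4198296-4198442, had percentiles of 55.8 and 80.8 in the KO libraries, against 49.1 and 21.5 in the WT libraries. One 64.8 kb from Map3k8, a MAP kinase kinase kinase, had 67.0 and 83.5 in the KO libraries, against 56.7 and 24.6 in the WT libraries. The third, 54.9 kb from Jcad, a protein of endothelial cell junctions, had 75.0 and 80.7 in the KO libraries, against 49.2 and 14.4 in the WT libraries. All 3 were lowest in WT replicate 2. The other 4, at Crem and Bambi and a pair nearest Vmn1r238, differed by 3.8 to 7.5 points and did not separate the genotypes. The pair nearest Vmn1r238 held percentiles of 98.7 or more in every library. Next were 10 to 15 Mb with 8.09 points over 18 regions and 45 to 50 Mb with 7.64 points over 10. The neighbours at 70 to 75 and 75 to 80 Mb had 6.53 and 6.37 points over 13 and 27. By presence the window from 10 to 15 Mb was instead lower in KO. It stood at −4.59 and −2.52 percentage points in the KO libraries, against −0.188 and 1.53 points in the WT libraries. The lowest window by rank was at 50 to 55 Mb, around Lox, with −3.69 points over 12 regions.

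Single regions were read against the same background. Of the 702 chromosome 1 regions in all 4 lists, 153 were higher in both KO libraries than in both WT libraries relative to the other autosomes (21.8%) and 99 lower (14.1%). On chromosome 18, 79 of 327 were higher (24.2%) and 46 lower (14.1%). Over all autosomes 17.1% of regions were higher and 18.6% lower. The median region difference was 4.44 points on chromosome 1 and 4.16 points on chromosome 18, against 1.41 points on the other autosomes. On chromosome 1, 16.9% of the 313 gene-end regions and 25.7% of the 389 others were higher, while 9.90% and 17.5% were lower. Over all autosomes 11.3% of gene-end regions and 22.5% of the others were higher, and 16.3% and 20.7% lower. A region near the top of every list gets a positive value by this measure, because the WT means that are subtracted are larger than the KO means on average.

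The regions picked for the widest gap in favour of KO cells, 10 on chromosome 1 and 6 on chromosome 18, were all away from gene ends. Their genotypes did not overlap, since the gap chose them. The place depends on the cut, since the Epha4 gene end had a gap of 18.6 points beside 18.8 for Tram2, which was picked. Of the 702 chromosome 1 regions in all 4 lists, 53 had both KO percentiles above both WT percentiles and 126 had the reverse. On chromosome 18 these were 23 and 51 of 327, and over all autosomes 700 and 2738 of 10647. These raw counts are not adjusted for list length. Of the 53 chromosome 1 regions, 12 lay at gene ends, beside 97 of the 700 over all autosomes. On chromosome 1 the widest gap was inside Ppp1r12b, a regulatory subunit of myosin phosphatase, at chr1:134816695-134816932, with percentiles of 68.0 and 84.8 in the KO libraries, against 38.1 and 26.7 in the WT libraries. A region 66.0 kb from Pla2g4a, a phospholipase that releases arachidonic acid, had 77.9 and 77.5 in the KO libraries, against 50.4 and 35.6 in the WT libraries. Inside Aff3, a nuclear protein of the AF4 family, a region had 82.1 and 85.3 in the KO libraries, against 59.2 and 14.7 in the WT libraries. A region 8.19 kb from Acsl3, which activates long-chain fatty acids, had 77.8 and 75.4 in the KO libraries, against 50.2 and 12.4 in the WT libraries. Relative to each library's other autosomes, both KO libraries lay above both WT libraries in each of these. Another 5 lay inside Fcgr3, Nmnat2, 4931408C20Rik and Tram2 and 148 kb from Hhipl2, with differences of 38.9 to 43.0 points. Hhipl2 was also the nearest gene to a region picked for the gap in the other direction. The best-ranked WT-only region of chromosome 1 was nearest to Hhipl2 as well.

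The region near Jcad led on chromosome 18. A region inside Fam13b, at chr18:34508150-34508443, had 80.2 and 87.7 in the KO libraries, against 59.0 and 50.8 in the WT libraries. A neighbour 7.10 kb from the end of the same gene, at chr18:34515525-34515951, was in the authors' KO-enriched list with 73.1 and 80.2 in the KO libraries, against 75.6 and 40.8 in the WT libraries. In both regions of Fam13b the KO libraries lay above the WT libraries relative to the other autosomes, although the raw percentiles of the second overlap. A pair of regions 104 and 42.5 kb from Arhgap12, a GTPase-activating protein, differed by 42.4 and 35.0 points. Inside Smad2, which carries TGF-beta signals to the nucleus, a region had 74.7 and 71.5 in the KO libraries, against 60.5 and 32.1 in the WT libraries.

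The regions with the widest gap in the other direction were 5 on chromosome 1 and 3 on chromosome 18. A region 35.5 kb from Prrx1, a homeobox factor of limb and facial mesenchyme, at chr1:163209029-163209608, had percentiles of 10.9 and 33.5 in the KO libraries, against 87.1 and 79.9 in the WT libraries. Its difference of −53.9 points was the lowest of the chromosome 1 regions named. Near Zfp281, a zinc finger factor studied in pluripotent stem cells, a region had 11.2 and 3.11 in the KO libraries, against 69.3 and 45.0 in the WT libraries. A region inside Pappa2, a protease that cuts IGF binding proteins, had 6.51 and 14.9 in the KO libraries, against 65.8 and 38.4 in the WT libraries. The nearest gene to the next was Fn1, at 235 kb, with 5.58 and 15.9 in the KO libraries, against 66.0 and 40.1 in the WT libraries. On chromosome 18 a region inside Hsbp1l1 had 17.3 and 10.4 in the KO libraries, against 82.2 and 54.9 in the WT libraries. Inside Smad7, an inhibitor of TGF-beta signalling, a region had 4.76 and 54.7 in the KO libraries, against 84.0 and 77.1 in the WT libraries. The Smad7 gene end itself had 52.2 and 84.2 in the KO libraries, against 84.8 and 70.4 in the WT libraries, with the genotypes overlapping.

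**Figure D5:**
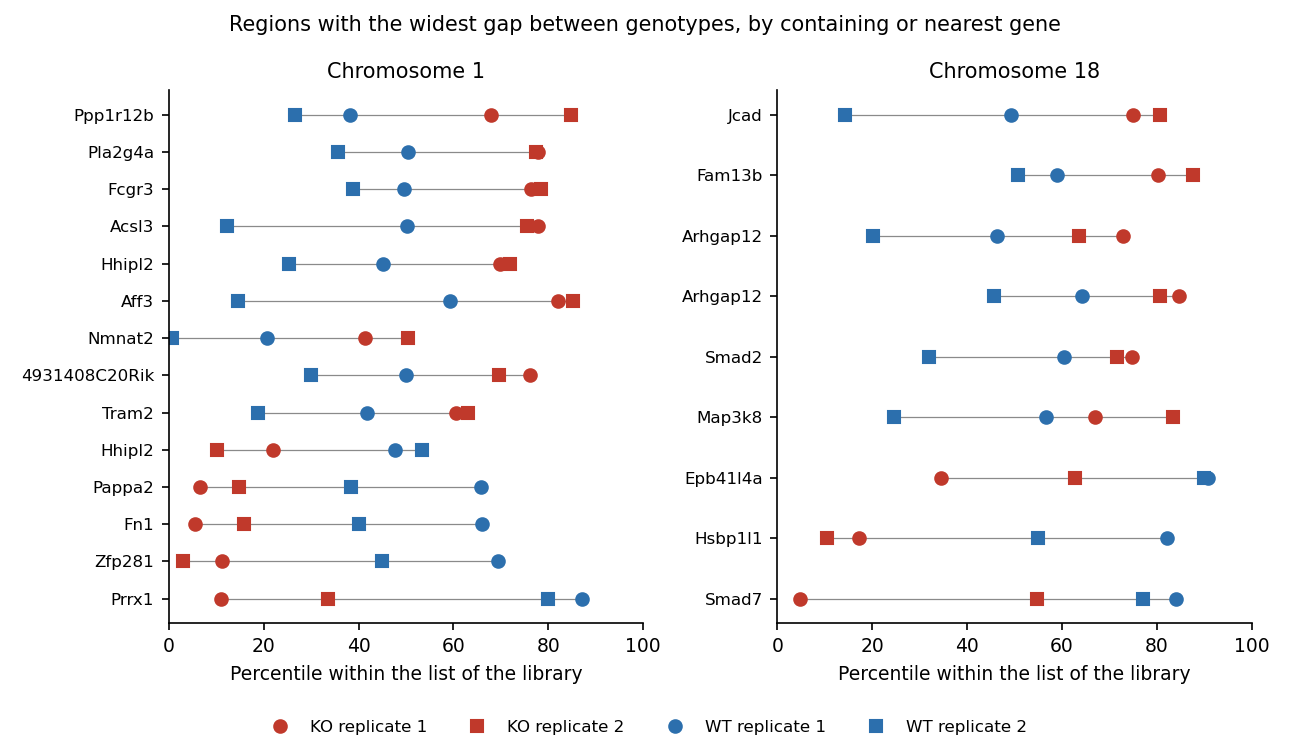
Within-list percentile of the regions with the widest gap between genotypes on chromosome 1 (left) and chromosome 18 (right), a row per region, named by the gene that holds it or the nearest one. Red points are KO and blue points WT libraries. The upper rows were picked for KO above WT and the lower rows for WT above KO, so the genotypes do not overlap in any row. The lists differ in length, so levels are best read within a library.

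Some regions had peaks in 1 genotype alone. There were 44 members with a peak in both KO libraries and neither WT library, 30 on chromosome 1 and 14 on chromosome 18 (2.04%, beside 1.59% of regions over all autosomes). There were 208 with a peak in both WT libraries and neither KO library, 137 and 71 by chromosome (9.64%, beside 11.2%). These counts follow the lengths of the lists. With every list cut to 13877 peaks, 136 members were KO-only and 94 WT-only, that is 9.83% and 6.79% of 1384, beside 6.95% and 8.35% over all autosomes. At equal length the KO-only count was thus the larger on these chromosomes, with 96 KO-only and 58 WT-only on chromosome 1, and 40 KO-only and 36 WT-only on chromosome 18. On the other autosomes at equal length it was the smaller, with 864 KO-only and 1108 WT-only. Without KO replicate 1 the KO-only count was 524, without KO replicate 2 it was 102 and without WT replicate 1 it was 197. The WT-only count was 544 without KO replicate 2 and 1271 without WT replicate 2. With the full lists, 1 of the 44 KO-only members and 28 of the 208 WT-only members lay at gene ends, beside 15 of 313 KO-only and 457 of 2293 WT-only regions on the other autosomes.

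The strongest KO-only region of chromosome 1 was inside Pkhd1, a ciliary protein of kidney tubules, with percentiles of 71.0 and 70.9 in the KO libraries. It was followed by regions 33.7 kb from Col6a3, a collagen VI chain, with 59.2 and 54.8, and 58.9 kb from Serpine2, a protease inhibitor of the matrix, with 51.0 and 54.9. Others lay near Dst, a cytoskeletal linker, and Cops8, a signalosome subunit. On chromosome 18 the KO-only regions of highest rank were inside Wdr33, Ndst1 and Zeb1 and between genes nearest Lyzl1 and Pabpc2. Zeb1 is a repressor that acts in the epithelial to mesenchymal transition. The Wdr33 region had 56.4 and 52.0 in the KO libraries. The WT-only regions of highest rank included the gene ends of En1, a homeobox factor of limb and midbrain, with 56.3 and 61.5 in the WT libraries, and of Atf6, a sensor of endoplasmic reticulum stress, with 67.4 and 51.9. On chromosome 18 a region inside Arhgap26, another GTPase-activating protein, had 94.5 and 84.0 in the WT libraries and no KO peak. A region in the gamma protocadherin cluster had 78.1 and 47.6 in the WT libraries, and since those genes share exons it cannot be assigned to 1 of them.

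The authors' differential lists are positions without a fold change. Of the 189 regions in their KO-enriched list, 34 were on chromosomes 1 and 18, 22 and 12 (1.58% of members, beside 0.781% over all autosomes). Of the 190 regions in their WT-enriched list, 6 were, 4 and 2 (0.278%, beside 0.853%). This excess belongs to the results the chromosomes were picked on. Of the 34, 21 had a peak in all 4 lists, and 32 and 34 had one in the KO libraries, against 31 and 22 in the WT libraries. The median percentile where present was 63.8 and 76.5 in the KO libraries, against 62.7 and 41.2 in the WT libraries. These medians come from lists of different length. In the 21 regions present in all lists, medians were also taken relative to each library's other autosomes. They were 15.9 and 11.9 points in the KO libraries, against −8.19 and −23.0 points in the WT libraries. By the same measure 18 of the 21 were higher in KO, beside 17.1% of regions over all autosomes. The authors listed these regions as KO-enriched, so the count describes that choice and is no separate support.

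Of those 34 regions, 18 lay inside genes away from their ends, 11 between genes and 5 at gene ends, namely those of Prkag3, Gigyf2, Tnnt2, Itm2c and Epg5. The Gigyf2 promoter shown above had 95.7 and 97.2 in the KO libraries, against 92.5 and 93.7 in the WT libraries, near the top of each list, and relative to the other autosomes its genotypes overlapped. The Prkag3 start, of a muscle AMPK subunit, had 70.5 and 77.9 in the KO libraries, against 68.5 and 3.33 in the WT libraries. The end of Tnnt2, cardiac troponin T, had 79.4 and 89.5 in the KO libraries, against 78.7 and 41.6 in the WT libraries. The end of Epg5, an autophagy protein, had 81.7 and 87.0 in the KO libraries, against 82.6 and 59.8 in the WT libraries. In each of these last 3 both KO libraries lay above both WT libraries relative to the other autosomes, and WT replicate 2 was the lowest. A region 34.4 kb from Sulf1, an enzyme that trims sulfate from heparan sulfate, separated both genotypes, with 88.9 and 89.0 in the KO libraries, against 71.6 and 70.9 in the WT libraries. Inside Wdfy1 a region had 78.1 and 82.9 in the KO libraries, against 62.7 and 20.6 in the WT libraries. Regions inside Niban1 and near Phlpp1, a phosphatase of AKT, had peaks in both KO libraries and in neither WT library.

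The KO-enriched list held 2 chromosome 18 regions inside Ctif, a factor of cap-dependent translation. One, at chr18:75528561-75528805, had 35.0 and 78.6 in the KO libraries, against 53.3 and 32.2 in the WT libraries. The other had no peak in KO replicate 1. Ctif held 11 members in all, of which 5 were in all 4 lists and 3 of these higher in KO. Ctif was named after its values were seen, as were the other genes with 8 or more members. Dst held 13, with 1 higher and 2 lower of 6 in all 4 lists, and Aff3 held 8, with 1 higher and 1 lower of 7. Rabgap1l held 8, and its 5 regions in all 4 lists had differences of 1.47 to 16.5 points, with 1 higher and none lower. Within Ldlrad4, a negative regulator of TGF-beta signalling, a region in the KO-enriched list had 63.3 and 85.0 in the KO libraries, against 68.5 and 3.08 in the WT libraries, while another was a WT-only region with 60.9 and 55.9.

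The 6 regions of the WT-enriched list, which the authors chose as higher in WT, had wide gaps. Inside Traf3ip3 a region had 22.6 and 70.3 in the KO libraries, against 93.5 and 89.0 in the WT libraries. A region 16.8 kb from Tcf4, an E-protein transcription factor, had 25.4 and 64.0 in the KO libraries, against 90.1 and 87.2 in the WT libraries. Those inside Gulp1, an adaptor for uptake of dead cells, and near Hs6st1, a heparan sulfate sulfotransferase, had no peak in KO replicate 1. The Gulp1 region had 47.5 in KO replicate 2, against 84.7 and 89.3 in the WT libraries. The remaining 2, nearest Icos at 142 kb and inside Mpp7, had no peak in either KO library.

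Gene lists fitting a fibroblast line and a pore protein were read at gene ends. Of 92 listed genes on the 2 chromosomes, 52 had a member at a gene end and 39 had one in all 4 lists, of which 8 were higher in KO and 10 lower, with a median difference of 0.911 points. At gene ends over all autosomes 11.3% were higher and 16.3% lower, with a median of 1.40 points. At gene ends of chromosomes 1 and 18 alone, 18.5% of 453 regions were higher and 9.93% lower, with a median of 4.65 points. The listed genes thus had more lower than higher regions, as did gene ends over all autosomes. All gene ends of chromosomes 1 and 18 had more higher than lower. Each listed gene counts with a single gene-end region even where it had more, and Hspd1 and Hspe1 count the same region. The 453 are all gene-end regions, so the sets are not counted alike.

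All 5 nuclear pore, lamina and SUMO genes had an open gene end, 4 in all lists, and 2 of these were higher in KO and none lower. Lbr, whose promoter is shown above, had percentiles of 76.1 and 80.4 in the KO libraries, against 80.8 and 54.9 in the WT libraries. Ahctf1, which seeds pore assembly on chromatin, had 87.6 and 95.2 in the KO libraries, against 96.6 and 86.2 in the WT libraries. Both calls rest on values relative to each library's other autosomes, since the raw percentiles of the genotypes overlap. Tpr, of the pore basket, and Lmnb1, a lamin, had differences of 3.82 and −2.73 points without separating the genotypes.

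Of 18 matrix genes, 4 had an open gene end, with Fn1 (fibronectin) and Lamc1 (a laminin chain) higher in KO and Col5a2 (a collagen V chain) lower. Fn1 had 82.0 and 89.6 in the KO libraries, against 84.2 and 76.7 in the WT libraries. Col5a2 had 46.4 and 64.0 in the KO libraries, against 83.6 and 65.5 in the WT libraries. The genotypes separate for Col5a2 without any adjustment and for Fn1 only relative to the other autosomes. Lox, which cross-links collagen, had a difference of 8.21 points and overlapping libraries, and the other 14 matrix genes had no member at a gene end.

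All 11 immediate-early and stress genes had a gene-end region in all 4 lists, with 1 higher and 2 lower in KO. Egr1, a zinc finger factor induced by serum, had 66.6 and 76.4 in the KO libraries, against 70.3 and 49.5 in the WT libraries. It was higher only relative to the other autosomes, since the raw percentiles overlap. The authors' fold enrichment there was 6.20 and 6.26 in the KO libraries, against 6.23 and 6.31 in the WT libraries. Egr1 had 3 gene-end regions, of which this one was counted. Atf3, a stress-induced factor, had 19.2 and 77.7 in the KO libraries, against 88.9 and 84.4 in the WT libraries, and Rgs2, a brake on G protein signals, had 15.3 and 59.2 in the KO libraries, against 78.5 and 60.6 in the WT libraries. KO replicate 1 was far the lowest library in both. Hspd1 and Hspe1, a chaperonin pair, share 1 region, which had 40.7 and 93.7 in the KO libraries, against 92.0 and 88.0 in the WT libraries, without separating the genotypes.

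Of 13 cell cycle and survival genes 11 had an open gene end and 10 one in all lists, with none higher and 3 lower in KO, namely Kif14, Kif20a (kinesins of cytokinesis) and Cdc23 (a subunit of the anaphase-promoting complex). Cdc23 had 21.7 and 56.3 in the KO libraries, against 73.3 and 70.4 in the WT libraries. Mcm3 and Mcm6, of the replicative helicase, had differences of 5.72 and 4.45 points with overlapping libraries. Of 12 growth factor and receptor genes 7 had an open gene end and 2 one in all lists. Epha4, shown above, had 38.6 and 67.7 in the KO libraries, against 19.9 and 4.71 in the WT libraries, and the authors' fold enrichment there was 7.14 and 9.24 in the KO libraries, against 6.10 and 5.85 in the WT libraries. That region did not appear in the authors' KO-enriched list. Pdgfrb, a fibroblast receptor tyrosine kinase, had a gene-end peak in WT libraries alone, with 55.0 and 18.7.

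Among 8 Wnt and Hedgehog genes, 4 had a region in all lists and Fzd7, a Wnt receptor, and Apc, of the complex that degrades beta-catenin, were lower, with differences of −4.57 and −2.96 points. Among 8 TGF-beta and BMP genes, Tgfbrap1, a chaperone of receptor signalling, was higher with 10.2 points and the gene end of Smad2 lower with −8.20 points, while the region inside Smad2 described above was higher with 34.2 points. Of 18 lineage transcription factors 5 had an open gene end. Tcf4 was higher by 3.61 points at its gene end, and the ends of Gli2, an effector of Hedgehog signals, and En1 had peaks in WT libraries alone, with 70.7 and 34.8 for Gli2. The other 13, Prrx1 and Zeb1 among them, had no member at a gene end.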

How the data were processed

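ATAC-seq was measured in 4 libraries, 2 per genotype. The submitters' processing notes give mm10 as the build and list MACS2, DESeq2, DiffBind 2.2.12, Bowtie2, cutadapt and deepTools without their roles. The authors deposited 1 peak list per library, with a fold enrichment ratio, −log10 p and −log10 q per peak, and 2 lists of differential regions without values. Peak values are the authors' and were used only to rank or filter within a list. The −log10 q was at least 3.00 in all deposited lists. The files give no depth, so list length was the only measure of it.

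Here peaks were merged at an overlap of 1 bp, ranks were averaged over ties, and gene ends came from RefSeq spans of 21887 protein-coding genes (GRCm38.p6). Members, gene lists and alternatives were chosen with earlier results of these data known. Named regions are those in a deposited list, those with the widest percentile gaps (10 and 5 on chromosome 1, 6 and 3 on chromosome 18), the 5 best-ranked regions per chromosome seen in 1 genotype alone, and gene ends of 8 gene lists. Python 3.11.15, pandas 2.3.3 and scipy 1.17.1 were used, and the merging and ranking were tested on simulated data. Some regions that this rule names are not reported here.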

Additional observations from a re-analysis of the deposited data

How the results depend on the processing

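A recomputed difference was called stable if it kept its direction and moved by less than the spread between replicates. A count was called stable if it changed by no more than 1.5 times. For the gene-end contrasts, which carry a test, only the direction had to hold. Of the values reported for the chromosomes, windows and one-genotype counts, 87 recomputed values were stable, 20 moved further and 1 reversed. For position classes and region counts these were 109, 49 and 10. Ranked by fold enrichment the rank difference was 1.40 points (chromosome 1) and 0.975 points (chromosome 18). At equal list length the chromosome 1 presence difference was 6.83 points, the chromosome 18 rank difference 3.78 points, and the KO-only and WT-only counts 136 and 94. Against 11 autosomes without excess in an authors' list, chromosome 1 presence was 2.82 and chromosome 18 rank 1.84 points. With percentile 0 where absent, chromosome 18 rank was 3.35 points. The causes were not tested. Leaving out 1 library at a time gave 1.92 to 4.06 points (chromosome 1 rank), 1.62 to 5.26 (its presence), 2.17 to 3.35 (chromosome 18 rank), 1.19 to 6.55 (its presence), −1.12 to 0.379 for the chromosome 1 gene-end contrast (reversed without KO replicate 1), −3.45 to −2.43 for the chromosome 18 one, 20 to 22 and 8 to 11 higher windows, 52 to 524 KO-only and 221 to 1271 WT-only members. Counts of windows and regions rise by construction when fewer libraries must separate.

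By position, chromosome 1 rank between genes ran from −0.359 (without WT replicate 2) to 2.74 as libraries were left out. Its presence between genes was 4.23 at equal length, 0.672 at −log10 q of at least 5, 2.16 with regions in at least 1 list, −2.95 against the 11 autosomes, −1.53 with peaks covering at least 0.5 of the region, 0.358 with gene ends within 2.5 kb, 0.00375 without WT replicate 1 and 0.270 without WT replicate 2, with −1.06 the lowest without a library. By fold enrichment chromosome 18 rank was −0.209 inside genes and −0.712 between genes, and between genes it ran from −0.0723 (without KO replicate 2) to 2.80 as libraries were left out. Over 10647 regions the percentile difference between KO replicates 1 and 2 was correlated with that between WT replicates 1 and 2 (Pearson r = −0.158). The shorter list was replicate 1 in KO and replicate 2 in WT, which by itself pulls this value down. It therefore cannot decide whether same-numbered libraries belong together. With the replicate block the differences were 3.13 and 2.72 points by rank, with an exact p of 0.5, the smallest that 2 pairs allow. The mean over pairs equals the difference of the group means by arithmetic, so these values could not change. They are counted among the stable values above. Counted in same-numbered pairs 20 chromosome 1 and 7 chromosome 18 windows were higher, and with the pairing crossed 18 and 8, both added after seeing the data. Unknown depth limits every absence from a list.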

Other observations

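Of 63 miRNA hairpins of chromosome 1 in the RefSeq table (GRCm38.p6), 5 lay within 1 kb of one of the regions. Their mature sequences follow, 5′ to 3′, with the seed (bases 2 to 8) in capitals, and none of the seeds is shared.
mmu-miR-206-3p: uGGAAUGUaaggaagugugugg
mmu-miR-30a-5p: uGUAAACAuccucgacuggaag
mmu-miR-199a-5p: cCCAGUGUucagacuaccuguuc
mmu-miR-6546-3p: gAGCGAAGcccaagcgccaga
mmu-miR-8114: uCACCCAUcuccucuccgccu
Mir206, a muscle miRNA, lies 702 bp from a region with percentiles of 44.2 and 50.8 in the KO libraries, against 67.1 and 67.2 in the WT libraries, which did not separate relative to the other autosomes. Mir30a has 2 regions, and the one 538 bp away had 22.3 and 61.8 in the KO libraries, against 83.7 and 53.4 in the WT libraries, lower in KO relative to the other autosomes. Mir199a-2, a miRNA of mesenchymal cells, overlaps a region that was strong in every library, with 88.8 and 93.5 in the KO libraries, against 96.6 and 92.7 in the WT libraries. Both regions at Mir6546 were higher in KO. One of them, 259 bp away, is the region inside Fcgr3 that was picked above for its gap in favour of KO cells. The overlapping one had 58.7 and 44.0 in the KO libraries, against 45.2 and 23.9 in the WT libraries. The region at Mir8114 had no peak in KO replicate 1. The lists say nothing about the level of any miRNA.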
